A study of Homo sapiens with 6 samples.

Results

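The kinetochore, spindle checkpoint and cytokinesis genes described here are 58 protein-coding genes whose products build the kinetochore, delay anaphase until chromosomes are attached, drive entry into mitosis and divide the cell. They were chosen by gene symbol from the functions of their products, with earlier results of these data known. All 58 were found among the 58302 genes of the deposited table. RNA came from ME180, an established human cervical cancer line of epithelial morphology. The cells had been transfected for 48 h with a control small interfering RNA (siControl) or one directed at SGK1 (siSGK1). SGK1 is a kinase related to AKT that acts on ion channels and transporters. Each group holds 3 libraries, numbered 2, 3 and 4, which the series calls biological repeats. Both groups went through transfection, so no untransfected cells enter the comparison. The labels name neither the siRNA sequences nor a clone of the line.

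The kinetochore is the protein assembly that joins a chromosome to spindle microtubules. Its inner layer sits on nucleosomes containing the histone variant CENP-A, and its outer layer, the KMN network, grips the microtubule. Kinetochores without a microtubule recruit checkpoint kinases and produce the mitotic checkpoint complex, which holds back anaphase. After anaphase the central spindle and the contractile ring divide the cell. Many of these genes are transcribed in G2 and mitosis through promoters that bind the MuvB complex with MYBL2 or FOXM1 at a cell cycle homology region (CHR) and NF-Y at CCAAT boxes.

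Promoter windows show how far the members share these elements. RefSeq windows (GRCh38.p14, 250 bases before to 50 bases after the annotated start) were found for 49 of the 58 members. No entry was matched for CENPH, CENPL, CENPM, KNL1, BUB3, TTK, WEE1, FOXM1 and RACGAP1. The 4 stretches printed here belong to the called members with the smallest p whose window holds both kinds of match, with at most 1 per role group. They run 5′ to 3′ on the gene's strand from 250 bases before the start to 30 bases from it on. Capitals mark the CHR letters TTTGAA or TTTAAA and the NF-Y letters CCAAT, each searched on both strands, so that CCAAT on the other strand reads ATTGG and TTTGAA reads TTCAAA. The stretches are chr2:26785806-26786085 (plus strand) for CENPA, chr11:113773663-113773942 (minus) for ZW10, chr15:90994506-90994785 (minus) for PRC1 and chr2:168890401-168890680 (minus) for SPC25.
CENPA: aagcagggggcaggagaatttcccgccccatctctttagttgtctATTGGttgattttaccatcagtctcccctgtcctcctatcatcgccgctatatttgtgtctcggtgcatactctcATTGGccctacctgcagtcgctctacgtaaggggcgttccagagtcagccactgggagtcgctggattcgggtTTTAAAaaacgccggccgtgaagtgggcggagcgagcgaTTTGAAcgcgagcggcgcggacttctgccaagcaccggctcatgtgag
ZW10: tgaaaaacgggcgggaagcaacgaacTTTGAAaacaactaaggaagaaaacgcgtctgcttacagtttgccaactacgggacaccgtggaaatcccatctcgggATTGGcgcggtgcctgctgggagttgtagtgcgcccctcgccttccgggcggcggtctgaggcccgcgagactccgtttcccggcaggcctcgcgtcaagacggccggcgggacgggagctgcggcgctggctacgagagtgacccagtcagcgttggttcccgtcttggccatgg
PRC1: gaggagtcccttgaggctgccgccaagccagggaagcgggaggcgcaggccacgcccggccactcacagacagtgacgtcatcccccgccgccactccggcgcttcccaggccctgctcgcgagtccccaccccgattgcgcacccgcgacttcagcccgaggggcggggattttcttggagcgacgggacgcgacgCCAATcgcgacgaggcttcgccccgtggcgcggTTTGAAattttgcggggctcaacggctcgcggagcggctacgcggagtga
SPC25: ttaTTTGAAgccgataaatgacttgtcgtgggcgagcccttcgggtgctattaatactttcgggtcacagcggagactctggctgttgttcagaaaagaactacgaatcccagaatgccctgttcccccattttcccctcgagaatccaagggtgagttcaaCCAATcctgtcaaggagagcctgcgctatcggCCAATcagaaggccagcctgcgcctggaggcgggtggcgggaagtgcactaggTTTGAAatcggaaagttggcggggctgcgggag
In CENPA, PRC1 and SPC25 a CHR match lies at position -18, -20 and -3 from the start, with a CCAAT match farther upstream. In ZW10 the CHR match lies at -224, upstream of its CCAAT match at -146.

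CHR letters were found in 27 of the 49 member windows (55.1%), against 24.3% of 27305 RefSeq windows and 14.8% of 8429 windows of tested genes. Within the 100 bases around the start the shares were 46.9% of members, 7.75% of all windows and 4.45% of tested genes. CCAAT letters were in 61.2% of member windows, 35.7% of all windows and 37.1% of tested genes, and both kinds were in 36.7%, 9.49% and 6.16%. All 7 spindle and cytokinesis members with a window held CHR letters within those 100 bases. The 2 kinds of letters do not overlap in the printed windows, and a match describes letters, not a bound site.

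The libraries give each member a usable depth. Whole reads were recovered from the deposited values: 27262794 to 27874948 per siControl library and 28405647 to 35242643 per siSGK1 library. The members had 147 to 10003 reads per library. Levels are FPKM, fragments per kilobase of gene length, with the libraries scaled by median of ratios rather than by total reads. SGK1 itself fell from 4.12 ± 0.19 to 1.70 ± 0.12 FPKM (SD, n = 3 each), 41.2% of control. Its log2 change was -1.07 (SE 0.07, limma adjusted p = 1.88e-05), and the exact permutation p (two-sided) was 0.1, as low as 3 against 3 libraries can reach. Mitochondrial genes took 4.16% to 4.397% of reads in siControl and 3.38% to 3.66% in siSGK1. The epithelial markers KRT5, KRT14, TP63, CDH1 and EPCAM were all expressed. Their summed level was 5340 to 5585 FPKM in siControl and 3215 to 3775 FPKM in siSGK1. KRT5 and KRT14 carried this shift, at 0.74 and 0.39 times their control means, while TP63, CDH1 and EPCAM had ratios of 1.00, 1.007 and 0.996 and were not called. The part of the keratin shift in the results was not tested. All 4 leukocyte markers had a mean under 1 FPKM, with sums of 0.165 to 0.195 FPKM in siControl and 0.151 to 0.366 FPKM in siSGK1. All 3 endothelial markers were also under 1 FPKM (sums of 1.38 to 1.66 and 0.710 to 0.882 FPKM), with PECAM1 at 0 in every library. Of 5 fibroblast markers COL1A1 alone exceeded 1 FPKM, and their sums were 4.70 to 5.25 FPKM in siControl and 4.86 to 5.72 FPKM in siSGK1.

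Most members were higher after siSGK1. Of 57 tested members 44 rose and 1, CENPB, fell, at an adjusted p below 0.05 in a limma test of log2(FPKM + 0.5) adjusted over 11945 genes. Over all tested genes 40.6% were called, 17.9% higher and 22.7% lower. The members' median log2 change was 0.46, against -0.006 for all tested genes. A called rise with a fold of at least 1.5 in mean FPKM was seen in 17 members (3.58% of all tested genes), so most rises were smaller. The lowest siSGK1 library lay above the highest siControl library in 44 of 57 tested members, against 24.6% of all tested genes. These are the same 44 members that were called higher, so this order is not separate support for the calls. The reverse order was found in CENPB, CENPP, NSL1 and PMF1, against 28.8% of all tested genes. The 58 members together summed to 854, 869 and 860 FPKM in siControl and 1132, 1108 and 1119 FPKM in siSGK1. In bulk RNA, more cells in mitosis and more transcript per cell cannot be told apart.

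Scaling bears on the counts. The deposited values centre the typical gene near no change. Scaling by total reads moved the median of all genes to 0.12 and called 48 members higher and 0 lower, with 36.1% of all genes called higher. TPM scaling moved it to 0.18 and called 50 higher and 0 lower, with 47.2% of all genes called higher. The share of all calls that were higher was 44.2% as deposited, 73.6% and 82.8%. Measured from the median of all genes, the members' median was 0.47 under each of these 3 scalings.

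The background moved with the other settings too. The share of all tested genes called higher was 17.9% with a pseudocount of 0.1, 18.0% with 1, 5.25% with no level filter, 19.7% at a mean FPKM of at least 5 and 20.9% after quantile normalization. It was 20.2% with voom and 16.8% with the replicate block. The share called lower in the same order was 22.6%, 22.7%, 6.56%, 30.8%, 19.9%, 24.9% and 21.3%, and it was 12.9% with total-read scaling and 9.8% with TPM scaling. Without siControl replicates 2, 3 and 4 in turn, 14.6%, 14.0% and 16.0% were called higher and 18.5%, 17.5% and 20.4% lower. Without siSGK1 replicates 2, 3 and 4 in turn, 15.1%, 16.4% and 14.2% were called higher and 21.0%, 19.9% and 19.1% lower. Under every one of these settings at least 33 members were called higher.

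**Figure D1:**
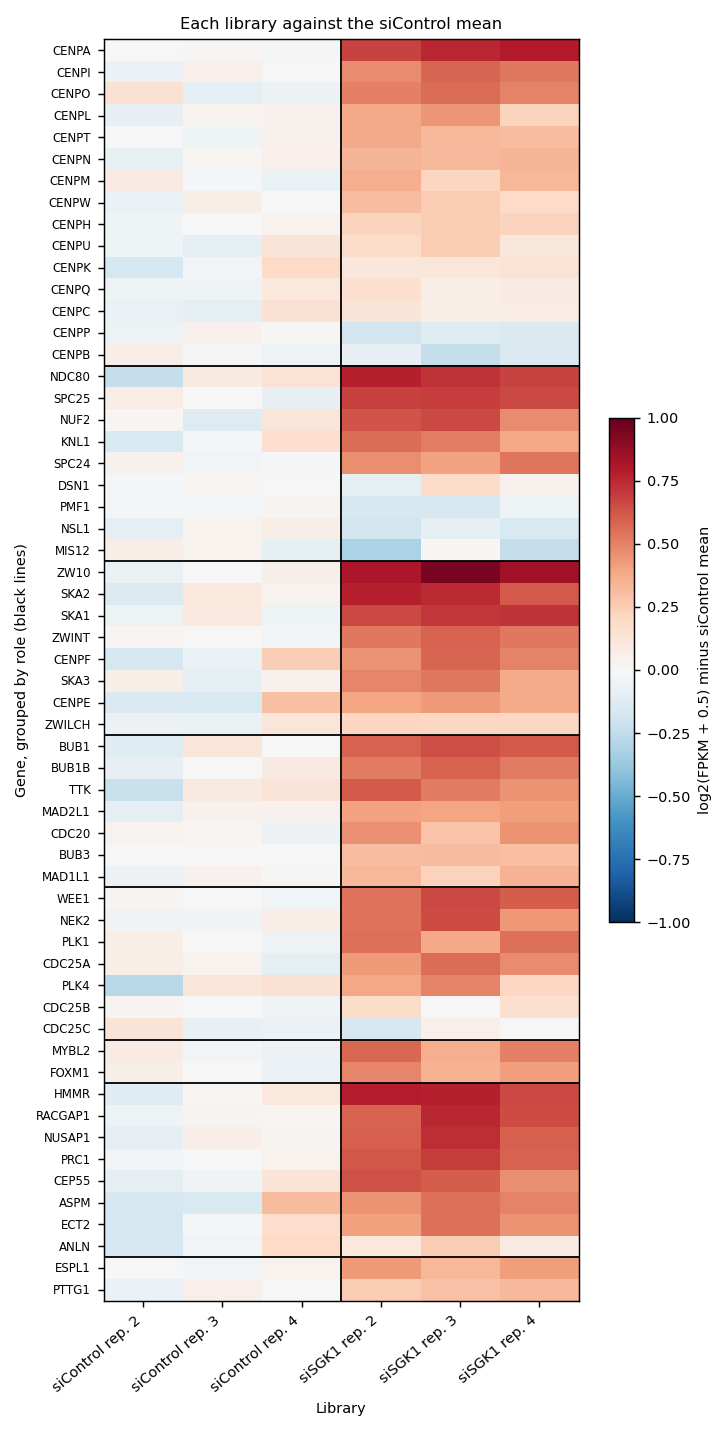
Level of each of the 58 genes (rows, grouped by role) in each library (columns), as log2(FPKM + 0.5) minus the mean of the 3 siControl libraries; red is higher and blue lower. The 3 siSGK1 columns are red for most genes, and pale or blue for CENPB, CENPP, DSN1, PMF1, NSL1, MIS12 and CDC25C.

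The inner kinetochore held genes that rose and genes that were not called. Of its 15 members 9 rose, 1 fell and 5 were not called, with a median log2 change of 0.25, below that of every other role group. CENPA (ENSG00000115163, chromosome 2, 26764289 to 26801067, plus strand), the histone H3 variant that marks the centromere, measured 11.3, 11.3 and 11.1 FPKM in siControl replicates 2, 3 and 4 and 18.2, 19.3 and 19.8 FPKM in siSGK1. Every siSGK1 library was thus well above every control library. The rise was 1.70-fold, with a log2 change of 0.74 (SE 0.05, adjusted p = 2.01e-05). CENPI (ENSG00000102384, chromosome X, 101098218 to 101163681), a subunit of the CENP-HIKM group, measured 2.08, 2.27 and 2.20 FPKM in siControl and 3.23, 3.51 and 3.37 FPKM in siSGK1. CENPO, a subunit of the CENP-OPQU group, measured 5.29, 4.37 and 4.50 FPKM in siControl and 6.87, 7.17 and 6.83 FPKM in siSGK1. Their log2 changes were 0.53 (SE 0.06, adjusted p = 3.60e-04) and 0.52 (SE 0.07, adjusted p = 7.41e-04).

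Differences between partners within these subcomplexes were not tested. In the CENP-OPQU group CENPO rose while CENPP, CENPQ and CENPU were not called, at log2 changes of -0.15, 0.10 and 0.18. These null calls depend on the setting: CENPP was called lower with voom, and CENPU was called higher without siControl replicate 4. CENPP (2.41 ± 0.10 against 2.12 ± 0.06 FPKM; SD, n = 3 each) shares exon bases with IPPK on the other strand over 38% of its exon length, so its value is uncertain. The value of CENPO is uncertain too, since it shares exon bases with ADCY3 on the other strand over 27% of its exon length. In CENP-HIKM, CENPH, CENPI and CENPM rose by log2 changes of 0.23, 0.53 and 0.30, and CENPK was not called (0.12). CENPK too was called higher without siControl replicate 4. CENPL and CENPN, which recognise the CENP-A nucleosome, rose by 0.35 and 0.33. CENPT and CENPW, which form a histone-fold pair and link to the outer layer, rose by 0.34 and 0.25. CENPC, the scaffold that bridges inner and outer layers, had a log2 change of 0.086 (SE 0.094) and was not called.

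CENPB, which binds a DNA motif of alphoid repeats, was the member called lower. It measured 71.1, 67.6 and 65.5 FPKM in siControl and 64.2, 57.5 and 61.5 FPKM in siSGK1, so the groups lay close together without overlapping. Its log2 change of -0.16 (SE 0.05, adjusted p = 0.049) passed narrowly. The call was lost when any library except siSGK1 replicate 2 was left out (adjusted p = 0.053 to 0.155), and under TPM scaling, which moved the median of all genes to 0.18, its log2 change was 0.047. With a mean of 64.6 FPKM it was among the most abundant members, below PTTG1, CDC20 and MYBL2.

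In the outer kinetochore 5 of 9 members rose. All 4 genes of the NDC80 complex, which contacts the microtubule, rose, and none of the 4 genes of the MIS12 complex, which anchors it to the inner layer, was called. SPC25 (ENSG00000152253, chromosome 2, 168834132 to 168913371, minus strand) measured 5.96, 5.63 and 5.30 FPKM in siControl and 9.33, 9.41 and 9.18 FPKM in siSGK1. SPC24, its partner at the inner end of the rod, measured 12.3, 11.7 and 11.8 FPKM in siControl and 16.6, 16.0 and 17.5 FPKM in siSGK1. NDC80, which carries a microtubule-binding head, measured 3.43, 4.43 and 4.61 FPKM in siControl and 7.44, 7.15 and 6.88 FPKM in siSGK1. All 3 genes were separated between the groups, and control replicate 2 was the lowest library for NDC80. Their folds were 1.65, 1.40 and 1.72, and the log2 changes 0.68 (SE 0.05, adjusted p = 4.89e-05), 0.47 (SE 0.05, adjusted p = 2.20e-04) and 0.73 (SE 0.10, adjusted p = 5.79e-04). NUF2, the partner of NDC80, rose 1.58-fold. KNL1, the large scaffold to which BUB1 and BUB3 dock, rose by a log2 change of 0.49.

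The MIS12 complex genes had log2 changes of 0.047 (DSN1), -0.12 (PMF1), -0.14 (NSL1) and -0.18 (MIS12). DSN1 measured 11.8, 12.1 and 11.9 FPKM in siControl and 11.2, 13.6 and 12.3 FPKM in siSGK1, with siSGK1 libraries on both sides of the controls. MIS12 measured 8.84, 8.64 and 7.84 FPKM in siControl and 6.67, 8.55 and 7.07 FPKM in siSGK1, and siSGK1 replicate 3 lay within the control range. These null calls depend on the setting for 3 genes. Without siSGK1 replicate 3, MIS12 was called lower (-0.28, adjusted p = 0.016). Without siControl replicate 2, NSL1 was called lower (-0.19, adjusted p = 0.047), and under TPM scaling DSN1 was called higher (0.24, adjusted p = 0.033). The mean log2 level of the NDC80 complex genes minus that of the MIS12 complex genes was -0.44, -0.46 and -0.38 in the siControl libraries, against 0.40, 0.21 and 0.25 after siSGK1. The order of these means was thus opposite in the 2 groups. It is given as a description, since the genes were compared after their values were known. CHR letters were in the windows of NDC80, NUF2 and SPC25, and in none of SPC24, DSN1, MIS12, NSL1 and PMF1. CCAAT letters were in the windows of SPC24, SPC25, MIS12 and PMF1, and in none of NDC80, NUF2, DSN1 and NSL1. Whether these letters bear on the changes was not tested.

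**Figure D2:**
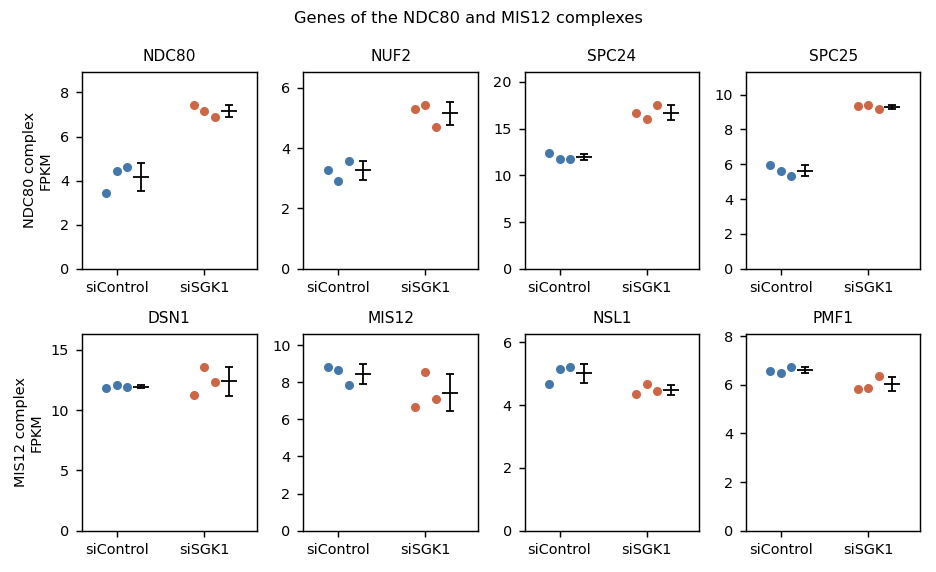
FPKM of the 4 NDC80 complex genes (top) and the 4 MIS12 complex genes (bottom) in the 3 siControl (blue) and 3 siSGK1 (orange) libraries, with black bars for mean and SD. The groups are apart for every gene of the top row, while for DSN1 and MIS12 they overlap and for NSL1 and PMF1 siSGK1 lies slightly lower.

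The SKA complex, the fibrous corona and the RZZ complex rose in all 7 tested members, with a median log2 change of 0.55. ZW10 (ENSG00000086827, chromosome 11, 113733187 to 113773811, minus strand), an RZZ subunit that recruits dynein and MAD1L1, had the largest change of all members. It measured 4.38, 4.62 and 4.798 FPKM in siControl and 8.44, 9.33 and 8.65 FPKM in siSGK1, a 1.91-fold rise (log2 change 0.87, SE 0.06, adjusted p = 2.35e-05). Its RZZ partner ZWILCH rose 1.17-fold, from 5.06 ± 0.41 to 5.91 ± 0.02 FPKM (SD, n = 3 each). The adjusted p of ZWILCH was 0.027, and it lay between 0.056 and 0.101 when any library but siControl replicate 4 was left out. ZWILCH also shares exon bases with the much more abundant RPL4. The third subunit, KNTC1, which is no member, was not called (log2 change 0.13). The differences between RZZ subunits were not tested.

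ZWINT, which links KNL1 to the RZZ complex, measured 24.7, 24.4 and 23.9 FPKM in siControl and 35.4, 36.9 and 35.4 FPKM in siSGK1 (log2 change 0.55, SE 0.04, adjusted p = 4.01e-05). SKA1, which couples the NDC80 complex to shrinking microtubules, measured 3.55, 3.998 and 3.55 FPKM in siControl and 6.12, 6.36 and 6.41 FPKM in siSGK1 (log2 change 0.70, SE 0.06, adjusted p = 7.20e-05). Its partners SKA2 and SKA3 rose 1.65-fold and 1.44-fold, so all of the SKA complex was higher. CENPF, a large coiled-coil protein of the corona, rose by a log2 change of 0.51. CENPE, the kinesin that carries chromosomes to the metaphase plate, lay just under the level filter at a mean of 0.95 FPKM and was not tested in the main comparison. CENPE measured 0.63, 0.62 and 1.04 FPKM in siControl and 1.14, 1.18 and 1.11 FPKM in siSGK1, with control replicate 4 close to the siSGK1 libraries. Without the level filter its log2 change was 0.40 and was not called (adjusted p = 0.16).

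Spindle checkpoint genes rose in all 7 members, with log2 changes between 0.30 and 0.62. BUB1B (ENSG00000156970, chromosome 15, 40161023 to 40221136), the BUBR1 subunit of the mitotic checkpoint complex, measured 6.48, 6.87 and 7.37 FPKM in siControl and 10.1, 10.6 and 10.1 FPKM in siSGK1. BUB1, the kinase that marks centromeric histone H2A, measured 4.09, 4.94 and 4.53 FPKM in siControl and 7.05, 7.35 and 7.18 FPKM in siSGK1. MAD2L1, the protein that changes shape to bind CDC20, measured 8.48, 9.38 and 9.38 FPKM in siControl and 12.1, 12.1 and 12.3 FPKM in siSGK1. None of these 3 genes overlapped between the groups. Their log2 changes were 0.54 (SE 0.06, adjusted p = 2.00e-04), 0.62 (SE 0.07, adjusted p = 2.28e-04) and 0.41 (SE 0.05, adjusted p = 5.49e-04).

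The remaining checkpoint genes rose too. TTK, the MPS1 kinase that starts checkpoint signalling, rose 1.51-fold, from 3.08 ± 0.46 to 4.63 ± 0.29 FPKM (SD, n = 3 each). CDC20, which activates the anaphase-promoting complex, was the second most abundant member and rose from 98.3 ± 3.5 to 129.7 ± 8.7 FPKM. BUB3, a WD-repeat adaptor present throughout the cell cycle, rose 1.246-fold with little spread, from 12.7 ± 0.1 to 15.8 ± 0.1 FPKM. MAD1L1, the partner that holds MAD2L1 at the kinetochore, rose 1.27-fold.

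**Figure D3:**
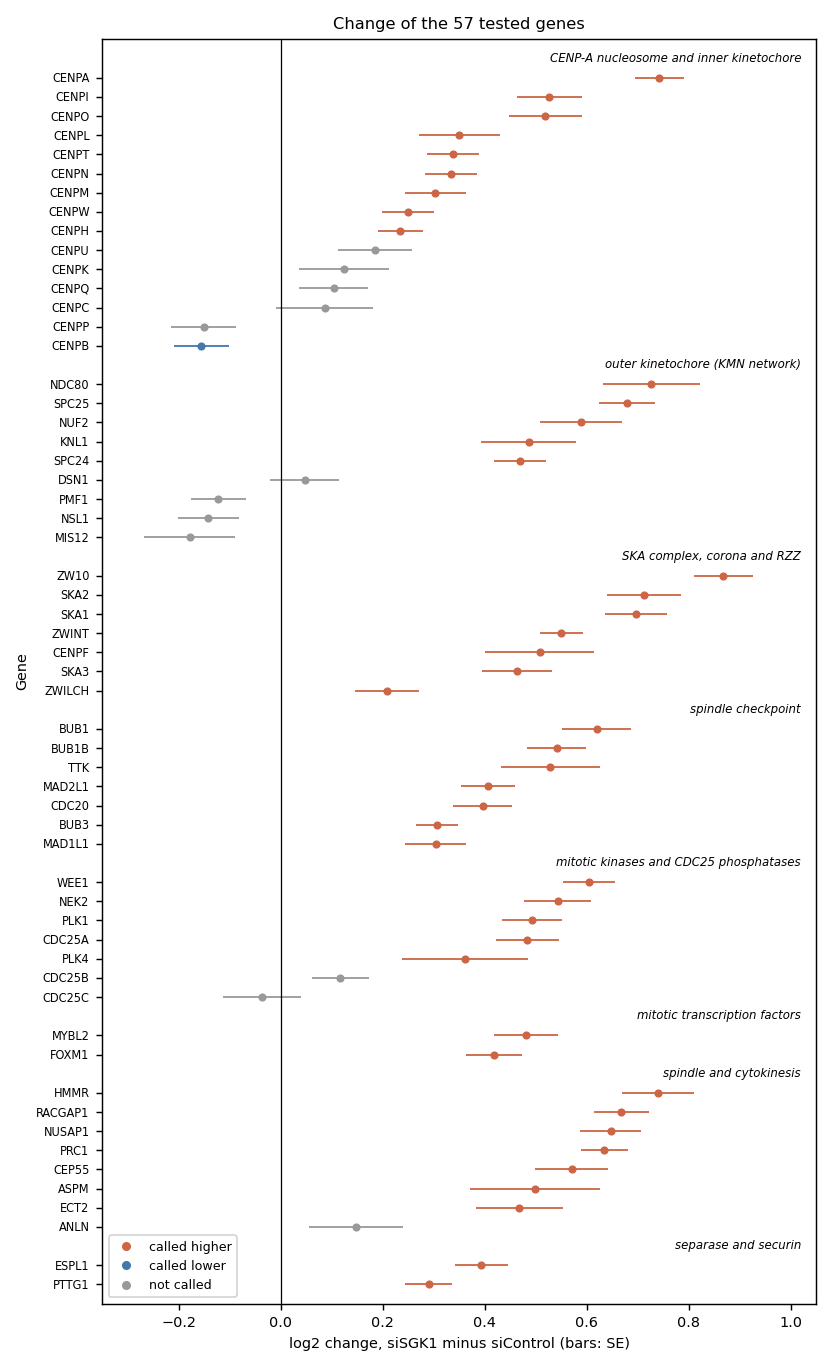
log2 change (siSGK1 minus siControl, limma on log2(FPKM + 0.5)) of the 57 tested genes by role, with bars of 1 SE; orange genes were called higher, the blue gene (CENPB) lower, and grey genes were not called. ZW10 is farthest right at 0.87, and the spindle checkpoint and the SKA, corona and RZZ groups hold no grey gene.

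Of the mitotic kinases and CDC25 phosphatases 5 of 7 rose, and CDC25B and CDC25C were not called. WEE1 (ENSG00000166483, chromosome 11, 9573681 to 9593457), which inhibits CDK1 by phosphorylation, measured 6.32, 6.18 and 6.06 FPKM in siControl and 9.27, 10.1 and 9.67 FPKM in siSGK1. NEK2, a kinase that separates centrosomes, measured 7.33, 7.35 and 7.91 FPKM in siControl and 11.2, 12.1 and 10.3 FPKM in siSGK1. PLK1, which acts from mitotic entry to cytokinesis, measured 29.4, 28.1 and 27.2 FPKM in siControl and 41.5, 36.8 and 41.6 FPKM in siSGK1. The groups were apart for all 3 kinases, with siSGK1 replicate 3 the lowest siSGK1 library for PLK1 and the highest for WEE1 and NEK2. Log2 changes were 0.60 (SE 0.05, adjusted p = 6.04e-05), 0.54 (SE 0.07, adjusted p = 3.65e-04) and 0.49 (SE 0.06, adjusted p = 3.65e-04). PLK4, the kinase of centriole duplication, rose 1.34-fold at a narrow adjusted p of 0.045. PLK4 lost its call when siControl replicate 2 (adjusted p = 0.1002), siSGK1 replicate 2 (0.091) or siSGK1 replicate 3 (0.146) was left out, and with no level filter (0.180).

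The CDC25 phosphatases remove the inhibitory phosphates of CDKs. CDC25A, which acts at G1/S as well as at mitotic entry, rose 1.43-fold, from 6.66 ± 0.42 to 9.50 ± 0.47 FPKM (SD, n = 3 each). CDC25B measured 46.8, 45.9 and 44.8 FPKM in siControl and 52.1, 45.9 and 51.5 FPKM in siSGK1, where replicate 3 lay among the controls. It was not called (log2 change 0.12, adjusted p = 0.13), but was called higher without siSGK1 replicate 3 (0.17, adjusted p = 0.010). Quantile normalization (0.19), total-read scaling (0.26) and TPM scaling (0.32) also called it higher. CDC25C measured 8.32, 7.16 and 7.26 FPKM in siControl and 6.70, 7.87 and 7.55 FPKM in siSGK1, with a log2 change of -0.037. It shares exon bases with FAM53C on the other strand, and its sign turned without siControl replicate 2 and without siSGK1 replicate 2. CDC25A against CDC25B and CDC25C was not tested as a difference.

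Both transcription factors of this programme rose. MYBL2 measured 66.7, 61.8 and 60.6 FPKM in siControl and 94.0, 81.3 and 89.3 FPKM in siSGK1 (log2 change 0.48, SE 0.06, adjusted p = 5.56e-04). FOXM1 measured 16.4, 15.7 and 15.0 FPKM in siControl and 22.2, 20.02 and 21.1 FPKM in siSGK1 (log2 change 0.42, SE 0.06, adjusted p = 5.73e-04). The siSGK1 libraries lay above all controls for both genes.

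Spindle and cytokinesis genes had the highest median of the role groups, at 0.60, and 7 of 8 rose. PRC1 (ENSG00000198901, chromosome 15, 90966038 to 90995629, minus strand), which bundles antiparallel microtubules of the central spindle, measured 16.3, 16.5 and 17.0 FPKM in siControl and 25.8, 27.1 and 25.2 FPKM in siSGK1. RACGAP1, the centralspindlin subunit, measured 21.2, 22.5 and 22.4 FPKM in siControl and 33.4, 37.6 and 34.98 FPKM in siSGK1. NUSAP1, a spindle microtubule-associated protein, measured 32.0, 35.9 and 34.9 FPKM in siControl and 52.1, 57.5 and 52.2 FPKM in siSGK1. In all 3 genes siSGK1 replicate 3 was the highest library. Log2 changes were 0.63 (SE 0.05, adjusted p = 3.44e-05), 0.67 (SE 0.05, adjusted p = 4.98e-05) and 0.65 (SE 0.06, adjusted p = 9.88e-05).

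HMMR, a spindle-associated hyaluronan receptor, had the largest rise of this group, 1.76-fold, from 3.65 ± 0.32 to 6.42 ± 0.34 FPKM (SD, n = 3 each). CEP55, which recruits the abscission machinery to the midbody, rose by a log2 change of 0.57. ECT2, the exchange factor that RACGAP1 activates to switch on RHOA, rose 1.40-fold. ASPM, a spindle pole protein, rose 1.51-fold, from 1.78 ± 0.46 to 2.68 ± 0.12 FPKM, and its call was lost without siSGK1 replicate 3 (adjusted p = 0.052) and without a level filter (adjusted p = 0.081). ANLN, the anillin scaffold of the contractile ring, was the exception. It measured 9.29, 10.3 and 12.1 FPKM in siControl and 11.3, 12.6 and 11.1 FPKM in siSGK1, and control replicate 4 exceeded 2 siSGK1 libraries. ANLN was not called (log2 change 0.15, adjusted p = 0.24), but was called higher without siControl replicate 4 (0.25, adjusted p = 0.037).

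Separase and its inhibitor both rose. ESPL1, the protease that opens cohesin rings, measured 4.83, 4.76 and 4.98 FPKM in siControl and 6.71, 6.23 and 6.67 FPKM in siSGK1 (log2 change 0.39, SE 0.05, adjusted p = 6.11e-04). PTTG1, the securin that restrains it and the most abundant member, measured 103, 111 and 108 FPKM in siControl and 128, 131 and 134 FPKM in siSGK1 (log2 change 0.29, SE 0.05, adjusted p = 1.45e-03). No siSGK1 library of either gene fell within the control range.

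Libraries of the same group were not equal for these genes. Among the 57 tested members siControl replicate 4 was the highest control in 28, replicate 2 in 16 and replicate 3 in 13, while replicate 2 was the lowest in 30. The members' median distance from the control mean was -0.050, 0.0017 and 0.033 log2 units in replicates 2, 3 and 4, and 0.45, 0.41 and 0.42 in the siSGK1 libraries. The spread of controls was thus much smaller than the distance to siSGK1. Of the siSGK1 libraries replicate 3 was the highest in 29 members, replicate 2 in 19 and replicate 4 in 9. Without siControl replicate 4, CENPK, CENPU and ANLN were called higher as well, and 47 members rose.

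Overlapping exons and short sequences in 3′ UTRs accompany some values. Exons of 13 tested members overlap those of another tested gene: ANLN, CDC25C, CENPA, CENPL, CENPN, CENPO, CENPP, CENPT, CENPU, FOXM1, MIS12, SPC24 and ZWILCH. No source says whether counting used strand, and the overlap of CENPA with SLC35F6 is on the same strand, so these values are uncertain. Among the other 44 tested members 36 rose and 1 fell, with a median log2 change of 0.485. Counting partners that were not tested as well, 23 tested members have an overlap. Among them are PMF1, over 23.3% of its exon length, and BUB1B, over 10.2%, both on the same strand. Of the 34 tested members without any overlap 27 rose and 1 fell, with a median log2 change of 0.47. The heptamers TCGGAGA or CGGAGAA occur in the longest 3′ UTR of CENPL, SKA2 and ZW10, all of which rose. Of 416 tested protein-coding genes with either heptamer 32.2% were called higher, against 18.1% of genes with neither these nor CTATGCA or TATGCAA. The latter pair occurs in CDC25C, CENPP, FOXM1, MAD2L1, NUSAP1 and SKA2, of which 4 rose and 0 fell. Of its 1677 carriers among all tested protein-coding genes 14.0% were called higher. Both pairs were chosen with earlier results of these data known, so these shares are a description and not a test. Among the 49 members without any of these heptamers 38 rose and 1 fell, with a median log2 change of 0.47.

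Windows with CHR letters belonged mostly to members that rose. Of 35 members with a window that rose, 24 had CHR letters, and of 12 that were not called 2 had them, ANLN and CENPC. CCAAT letters were in 24 of the 35 and in 6 of the 12. The median log2 change was 0.51 for the 26 tested members with CHR letters and 0.20 for the 22 without. These counts are a description. The members that rose without CHR letters in the window were SKA2, BUB1, NEK2, CENPI, CDC25A, MYBL2, SPC24, CENPT, MAD1L1, CENPW and ZWILCH.

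**Figure D4:**
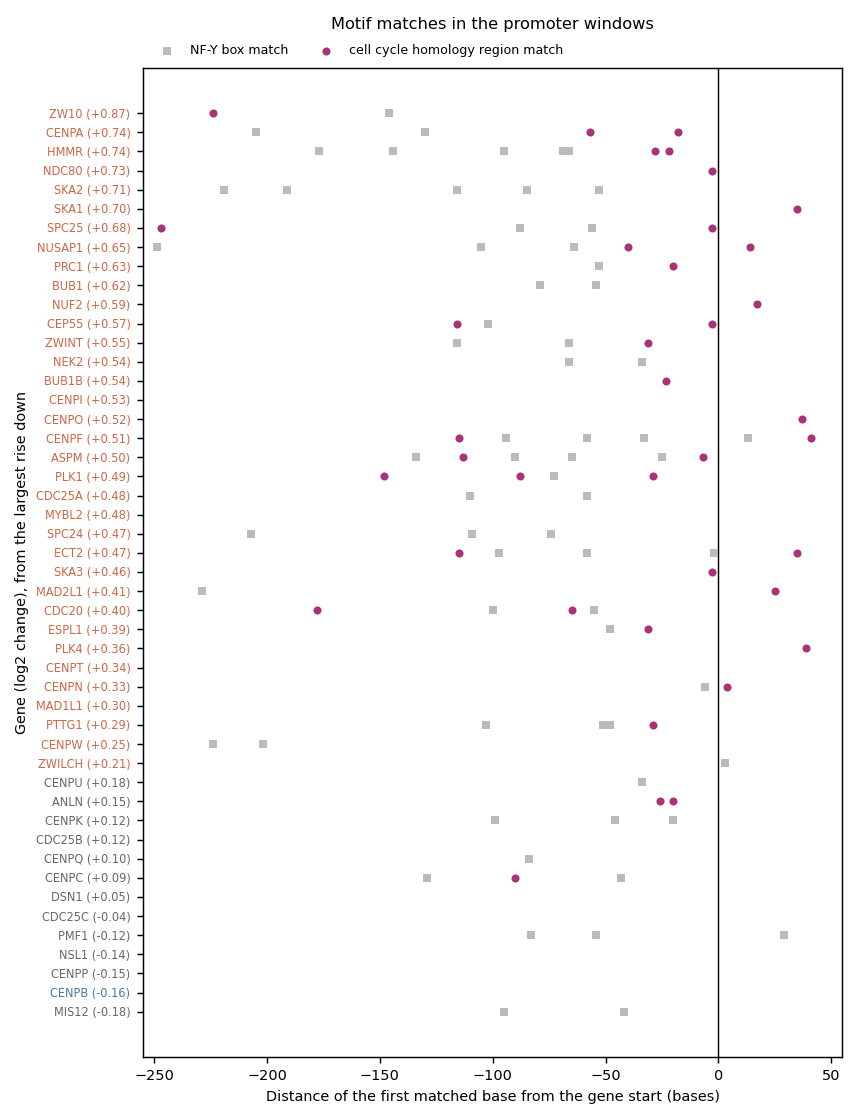
Distance from the annotated start (x axis, bases) of CHR matches (purple circles) and NF-Y box matches (grey squares) in the RefSeq windows of 48 tested members, ordered by log2 change (in brackets; orange names rose, the blue name fell, grey names were not called). Purple circles gather within 50 bases of the start in the upper rows, and the bottom 7 rows, from DSN1 to MIS12, hold none.

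Other genes of mitosis were compared through 10 lists of 159 genes, of which 154 were tested. The lists, like the members, were chosen with earlier results of these data known. Over all lists 85 rose and 9 fell, beside 17.9% higher and 22.7% lower among all tested genes, against which each list's count is to be read. Aurora kinases and chromosomal passengers rose in 10 of 10 tested genes (median log2 change 0.56), led by AURKB and BIRC5, each with a log2 change of 0.98. Mitotic kinesins rose in 10 of 12 (median 0.54). KIF4A, a chromokinesin that works with PRC1, rose from 9.61 ± 0.23 to 16.3 ± 0.7 FPKM, and KIF18B from 10.54 ± 0.35 to 17.8 ± 0.6 FPKM (SD, n = 3 each). Mitotic cyclins, CDK1 and their regulators rose in 10 of 11 (median 0.49), among them CCNA2 (log2 change 0.73) and CCNB2 (0.58).

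Other centromere and kinetochore genes rose in 11 of 22 and fell in 1 (median 0.21). HJURP, the chaperone that deposits CENP-A, rose from 6.75 ± 0.79 to 12.4 ± 0.6 FPKM, a 1.84-fold rise beside the 1.70-fold rise of CENPA. KNSTRN, a spindle adaptor, rose 1.46-fold, and MAD2L1BP, which helps to silence the checkpoint, fell to 0.88 times its control level. Cohesin and condensin genes rose in 11 of 21 (median 0.27), and NCAPH and NCAPD2, with the smallest p, had log2 changes of 0.69 and 0.48. The anaphase-promoting complex list, which also holds enzymes and regulators that work with the complex, rose in 5 of 18 (median 0.11). The ubiquitin-conjugating enzymes UBE2C and UBE2S rose by 0.76 and 0.48, and the regulators FBXO5 and FZR1 by 0.45 and 0.20. ANAPC15 (0.27) was the only subunit of the complex itself that was called. Other spindle and cytokinesis genes rose in 10 of 20 (median 0.14), and TACC3 and STMN1, with the smallest p, rose by 0.87 and 0.48. Centriole duplication genes rose in 2 of 6, STIL and CCP110 (median 0.20).

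Replication genes and the regulators that bind mitotic promoters were mixed. Of the DNA replication and G1/S genes 11 of 21 rose and 4 fell (median 0.14). RRM2 and CDC45 rose by 0.77 and 0.45, while MCM5, a subunit of the replicative helicase, fell from 43.5 ± 0.4 to 32.9 ± 3.1 FPKM (SD, n = 3 each). MuvB, DREAM and NF-Y genes rose in 5 of 13 and fell in 2 (median 0.16). The genes that fell were NFYC, an NF-Y subunit (log2 change -0.45, adjusted p = 4.16e-04), and TFDP2, a partner of E2F factors (-0.39, adjusted p = 2.72e-04). The lists were not tested against each other or against the members.

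**Figure D5:**
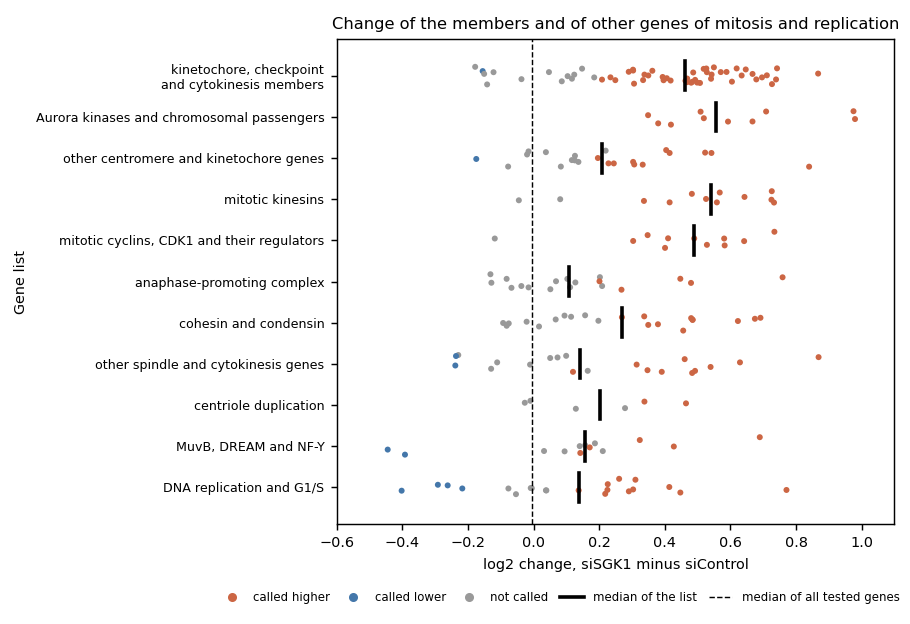
log2 change of the tested members (top row) and of the tested genes of 10 other lists (1 point per gene; orange called higher, blue lower, grey not called), with the list median as a black bar and the median of all tested genes as a dashed line. Medians of the passenger, kinesin and cyclin lists lie near the members' 0.46, and those of the other lists between 0.11 and 0.27.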

How the data were processed

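PolyA RNA of 6 ME180 samples, 3 per group, was sequenced from NEBNext Ultra libraries, per the labels' protocols. The authors deposited FPKM per gene and library, with gene lengths. Per the submitters' processing notes, bcl2fastq 2.19, HISAT2 2.0.5 and featureCounts 1.5.0-p3 were used, with the build hg19. The table's coordinates are those of GRCh38, however: 97.6% of 58039 genes shared with GENCODE 29, and all 58 members, have identical positions. Multiplying FPKM by length recovered whole reads for 100% of values above 0 (tolerance 0.001). The deposited values carry median-of-ratios scaling.

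The main test used limma 3.58.1 (R 4.3.3) with an intensity trend in its empirical Bayes step. It ran, two-sided, on log2(FPKM + 0.5) of the 11945 genes whose mean FPKM reached 1, and p-values were adjusted over all of them by Benjamini and Hochberg's method. A gene was called where the adjusted p was under 0.05. On this scale the change of low genes is understated. Folds are ratios of mean FPKM. The fit was first tested on simulated data. Alternatives were other pseudocounts, filters and scalings, limma's voom on recovered reads, a replicate block and leaving out each library. Values are given per library for the 3 members of each role group with the smallest p, for members called lower and for CENPE. DSN1, MIS12, CDC25B, CDC25C and ANLN are also given per library, chosen after their values were seen. The 2 genes with the smallest p are named from each list. Other genes named, and the subcomplex comparisons, were chosen after their values were seen. The members and lists, and the 3′ UTR heptamers, were chosen with earlier results of these data known. Nothing says how separate the repeats were, so p-values measure the spread between these libraries. Promoters were searched with Python 3.11.15 and pandas 2.3.3. Genes of the lists that are not named are not reported singly here.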

Additional observations from a re-analysis of the deposited data

How the results depend on the processing

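Across 15 alternatives, 41 of the 45 called members kept their call and direction wherever they were tested, and the exceptions were CENPB, ZWILCH, PLK4 and ASPM. Counts of members called higher stayed within 1.5 times the 44 of the main test, between 33 (mean FPKM of at least 5, which left 41 members to test) and 50 (TPM scaling). The count of members called lower, 1, became 0 without a level filter, under quantile normalization, total-read scaling and TPM scaling, and with the replicate block, and 2 (CENPB and CENPP) with voom on the recovered reads. The median log2 change, 0.46, was 0.41 with a pseudocount of 1, 0.59 with total-read scaling and 0.64 with TPM scaling. Leaving out 1 library at a time gave 42 to 47 members higher, 0 to 1 lower and a median of 0.41 to 0.45. Signs turned for 7 members. Under TPM scaling the log2 changes became 0.047 for CENPB, 0.014 for MIS12, 0.154 for CDC25C, 0.067 for PMF1, 0.043 for NSL1 and 0.016 for CENPP. Total-read scaling gave 0.095 for CDC25C and 0.0080 for PMF1. With 1 library left out, CDC25C lay between -0.083 (siSGK1 replicate 3) and 0.028 (siControl replicate 2), with 0.026 without siSGK1 replicate 2. DSN1 lay between -0.020 (siSGK1 replicate 3) and 0.113 (siSGK1 replicate 2). The cause was not tested.

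Same-numbered libraries showed no clear pairing: their deviations from the group means correlated at 0.12, 0.01 and -0.10 for numbers 2, 3 and 4. Only for number 2 did both libraries correlate best with each other. With 3 libraries per group these values cannot show whether same-numbered libraries shared a culture. With the replicate block 44 members were called higher and 0 lower, and CENPB lost its call (adjusted p = 0.058). CENPE had a test only where no level filter was applied.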

Other observations

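Several members have a close divergent neighbour. A tested gene on the other strand starts at most 1000 bases upstream of 13 members, and for 11 of these the neighbour is no member. Of those 11 members 7 rose and 0 fell, with a median log2 change of 0.33. Of their neighbours 3 rose, 1 fell and 7 were not called, with a median of 0.09, beside 17.9% called higher and 22.7% called lower among all tested genes. The neighbours that rose were PRR11, beside SKA2 (0.42 against 0.71), OIP5, beside NUSAP1 (0.23 against 0.65), and NUDCD2, beside HMMR (0.23 against 0.74). The ribosomal protein gene RPL4 fell (log2 change -0.21, limma adjusted p = 5.99e-03) while ZWILCH, 471 bases away, rose by 0.21. PTRHD1, whose start lies 34 bases from that of CENPO, was not called (-0.12), while CENPO rose by 0.52. Exons of PTRHD1 and CENPO share 247 bases on opposite strands. These genes were named after their values were seen, and the differences within pairs were not tested.

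CENPB and CDC25B form a pair of their own on chromosome 20. Their starts lie 211 bases apart on opposite strands and their promoter windows share 290 of 300 bases, which hold neither CHR nor CCAAT letters. CENPB was called lower at -0.16, and CDC25B was not called at 0.12.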
